A study of Mus musculus with 15 samples.

Results

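The clustered protocadherins are the cadherin-like surface proteins encoded by the 3 neighbouring gene clusters alpha, beta and gamma on mouse chromosome 18. Members were taken by gene symbol, as every row whose name begins with Pcdha, Pcdhb, Pcdhga, Pcdhgb or Pcdhgc, which gave 58 of the 21878 rows of the deposited tables: 14 alpha, 22 beta and 22 gamma. The alpha cluster lies at chr18:36930285-37188897, the beta cluster at chr18:37264998-37521419 and the gamma cluster at chr18:37661775-37841873, from RefSeq on GRCm38.p6. In neurons, promoter choice at each variable exon gives a cell its own set of isoforms, whose extracellular cadherin repeats bind the same isoform on another membrane and so let neurites tell self from non-self. An alpha or gamma transcript joins 1 variable exon to constant 3' exons shared by its whole cluster, whereas each beta gene is a single exon. Both the alpha and the gamma cluster end in C-type genes (Pcdhac1 and Pcdhac2, and Pcdhgc3, Pcdhgc4 and Pcdhgc5), which are known to be chosen in a less random way than the other variable exons. After shedding of the extracellular part, gamma-secretase, the protease whose catalytic subunits are the presenilins, is known to cut the membrane stub of clustered protocadherins.

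RNA-seq was carried out on prefrontal forebrain cortex of wild-type C57BL6/J mice (WT) and of conditional presenilin double knockout mice, written PS1/PS2 DKO in the labels (DKO). Plain water or water with nicotine at 100 µg/ml was given from 8 months of age for 3 months, and cortex was taken after behaviour tests. The WT mice gave 4 libraries on water and 4 on nicotine, and the DKO mice 4 on water and 3 on nicotine. The cells in which the deletion was made, its driver, the strain of the DKO mice and the sex of the mice are not given by these sources. Libraries of a group are told apart by number and nothing links each to a mouse of its own, so the p-values speak of the spread among the 15 libraries. Values are FPKM, reads scaled by gene length and by the reads in genes of the library. A member is called where limma on log2(FPKM + 1) gave p under 0.05 after Benjamini-Hochberg adjustment over 12728 genes, those that reached 1 FPKM in 3 or more libraries, and differences on this scale understate the change of low genes.

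The libraries held 16334904 to 19469215 reads in genes, and the tested members stood on 24 to 2690 reads per library with a median of 164. Psen2, a targeted gene, was at 6.43 ± 0.770 FPKM in WT water and 6.48 ± 0.571 in WT nicotine (SD, n = 4 each), and the DKO means were 1.51 ± 0.179 on water (SD, n = 4) and 1.57 ± 0.199 on nicotine (SD, n = 3), with no DKO library as high as any WT library. Cortical neuron markers were present in all groups, with 12 excitatory markers summing to 1526 to 1616 FPKM in the WT libraries and 1207 to 1356 in the DKO libraries. Summed Y-linked expression (Ddx3y, Eif2s3y, Kdm5d and Uty) was above 1 FPKM in 4 of 4 WT water, 0 of 4 WT nicotine, 4 of 4 DKO water and 2 of 3 DKO nicotine libraries. The DKO nicotine library under 1 FPKM was replicate 2, at 0.233 FPKM.

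Which reads were given to which member limits how the levels can be read. The gene lengths behind the FPKM values cover the shared exons, and in GENCODE M21 a median of 46.6% of an alpha member's exon length and 55.2% of a gamma member's is its own, against 100% for beta. Reads were not copied to every member of a cluster, since Pcdha8 held 3 to 41 reads per library and Pcdhac2 446 to 863. The sources used here do not state how reads from the shared exons were assigned or whether counting used strand, so levels are compared within a cluster and not between clusters. The 3 members listed at 0 in all 15 libraries, Pcdha4, Pcdha6 and Pcdha7, are those for which RefSeq also holds a joined alpha and gamma gene model. These models, Gm37013, Gm38666 and Gm38667, start 41, 6 and 9 bases from the start of the alpha gene and end with the gamma cluster, and they held 0, 3 and 3 reads over all libraries. A 0 for these 3 genes is therefore given as listed and not read as absence of expression.

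Of the 58 members, 55 were above 0 in some library and 45 passed the filter on low values: 4 of 14 alpha, 20 of 22 beta and 21 of 22 gamma members. The 10 members above 0 that did not pass were Pcdha1, Pcdha2, Pcdha3, Pcdha8, Pcdha10, Pcdha11, Pcdhac1, Pcdhb1, Pcdhb4 and Pcdhgb8. Pcdha5, Pcdha9, Pcdhb6, Pcdhb11 and Pcdhb21 passed with fewer than 3 DKO libraries at 1 FPKM, that is, through the WT libraries, and no member passed through the DKO libraries alone. Pcdha9 reached 1 FPKM in the WT water libraries only.

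The alpha and gamma clusters were led by a few genes, and the beta cluster less so. The C-type gene Pcdhac2 made up 48.5% of the summed alpha FPKM over all libraries, followed by Pcdha12, and both together 63.4%. The median over the 14 alpha members, those listed at 0 included, was 0.512 FPKM. In the beta cluster, Pcdhb9 with 13.6% and Pcdhb17 were the highest, both together making up 24.3%, and the median member was at 1.64 FPKM. In the gamma cluster, the C-type genes Pcdhgc5 and Pcdhgc3 together made up 43.6%, and the median member was at 2.81 FPKM.

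The comparison of DKO with WT mice on water asks how the loss of the presenilins relates to cluster expression without nicotine. Most members were lower in the knockout cortex and a pair of C-type gamma genes was higher. The mean of the DKO water libraries lay below that of the WT water libraries for 51 of the 55 members above 0 (92.7%), namely 11 of 11 alpha, 20 of 22 beta and 20 of 22 gamma members, against 36.4% of all 18118 genes above 0. Of the 45 tested members 21 fell, where 12.4% of all genes tested were called lower, and 2 rose, where 25.5% were called higher; 22 were not called. The median log2 difference was -0.20 over tested members and 0.05 over all genes tested, with members from -0.74 (Pcdhga8) to 0.42 (Pcdhgc3). Without the 5 members that passed the filter through the WT libraries, 19 of 40 fell and the median was -0.19. Every DKO water library lay below every WT water library for 23 of the 45, against 12.5% of all genes tested, and above for 2, against 24.0%.

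Markers of cell types moved in the same comparison. Of 12 excitatory neuron markers 7 fell and 0 rose, with a median log2 difference of -0.29, and of 8 pan-neuronal markers 5 fell and 1 rose, their summed level going from 2753 to 2935 FPKM in WT water to 2347 to 2537 in DKO water. All 8 astrocyte markers rose (summed 462 to 527 FPKM in WT water and 903 to 1000 in DKO water), as did all 8 microglial markers (152 to 182 and 640 to 749). Of 8 inhibitory neuron markers 7 rose, and of 6 striatal markers 3 rose (summed 140 to 206 FPKM and 208 to 347). Of 6 oligodendrocyte markers 4 rose, of 4 precursor markers 2, and of 5 endothelial and pericyte markers 3. The part of these shifts in the member values was not tested, and in bulk cortex fewer cells of a type and less RNA per cell cannot be told apart.

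**Figure D1:**
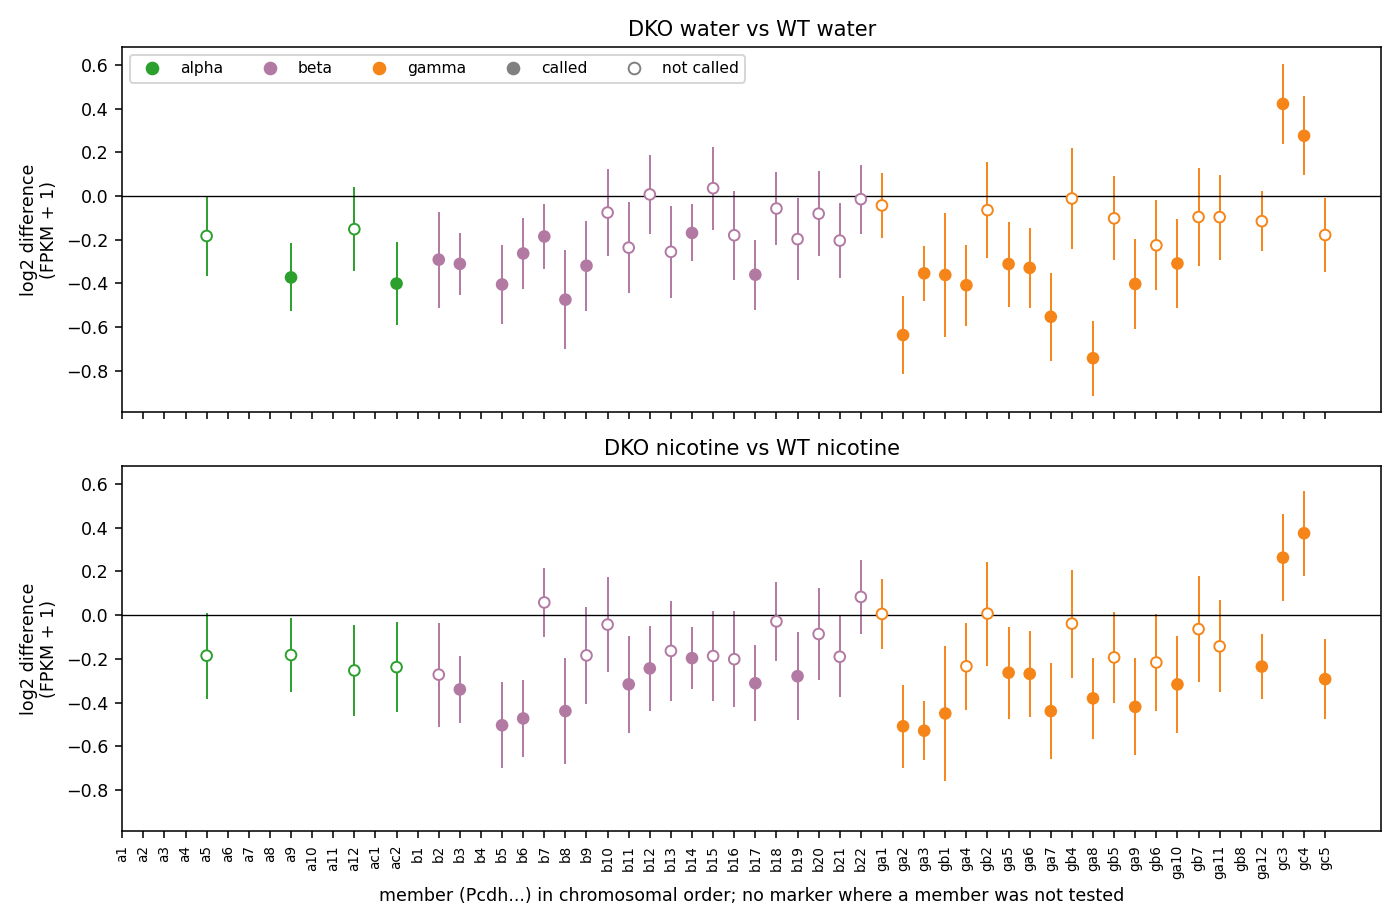
Log2 difference of FPKM + 1 for the 45 tested members in chromosomal order, DKO water against WT water (top) and DKO nicotine against WT nicotine (bottom). Points are limma estimates with 95% confidence intervals, filled where called; Pcdhga8 is lowest at -0.74 on water, and Pcdhgc3 and Pcdhgc4 lie above 0 in both panels.

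Summed over its genes, each cluster was lower in DKO water, and the gamma cluster was split by type. The alpha sum was 16.0, 14.5, 16.5 and 16.8 FPKM in the WT water libraries and 10.7, 11.2, 12.8 and 12.5 in the DKO water libraries, a mean of 16.0 ± 1.04 against 11.8 ± 0.992 (SD, n = 4 each). The beta sum was 45.3, 48.7, 49.1 and 46.8 FPKM in WT water and 38.4, 37.7, 37.5 and 39.5 in DKO water, a mean of 47.5 ± 1.77 against 38.3 ± 0.913 (SD, n = 4 each). These groups did not overlap in either cluster, and the DKO means were 0.740 and 0.806 times the WT means. The gamma sum was 97.1 ± 4.58 FPKM in WT water and 85.0 ± 4.31 in DKO water (SD, n = 4 each). Its groups did not overlap either, and the DKO mean was 0.875 times the WT mean. The 12 A-type gamma genes summed to 43.2, 39.0, 44.3 and 43.4 FPKM in WT water and 30.4, 29.3, 30.2 and 31.6 in DKO water, again without overlap, the DKO mean being 0.715 times the WT mean. The 3 C-type gamma genes summed to 41.8 ± 1.39 FPKM in WT water and 43.8 ± 2.60 in DKO water (SD, n = 4 each), with overlapping libraries. Their share of all reads of the 58 members was 27.7% to 29.2% in WT water and 34.1% to 35.5% in DKO water. The denominator spans all 3 clusters and was itself lower in DKO water, so the share does not show a rise of the C-type genes. The 7 B-type gamma genes summed to 12.8 ± 1.49 and 10.8 ± 1.01 FPKM (SD, n = 4 each), and their libraries overlapped. No test was run on these sums.

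**Figure D2:**
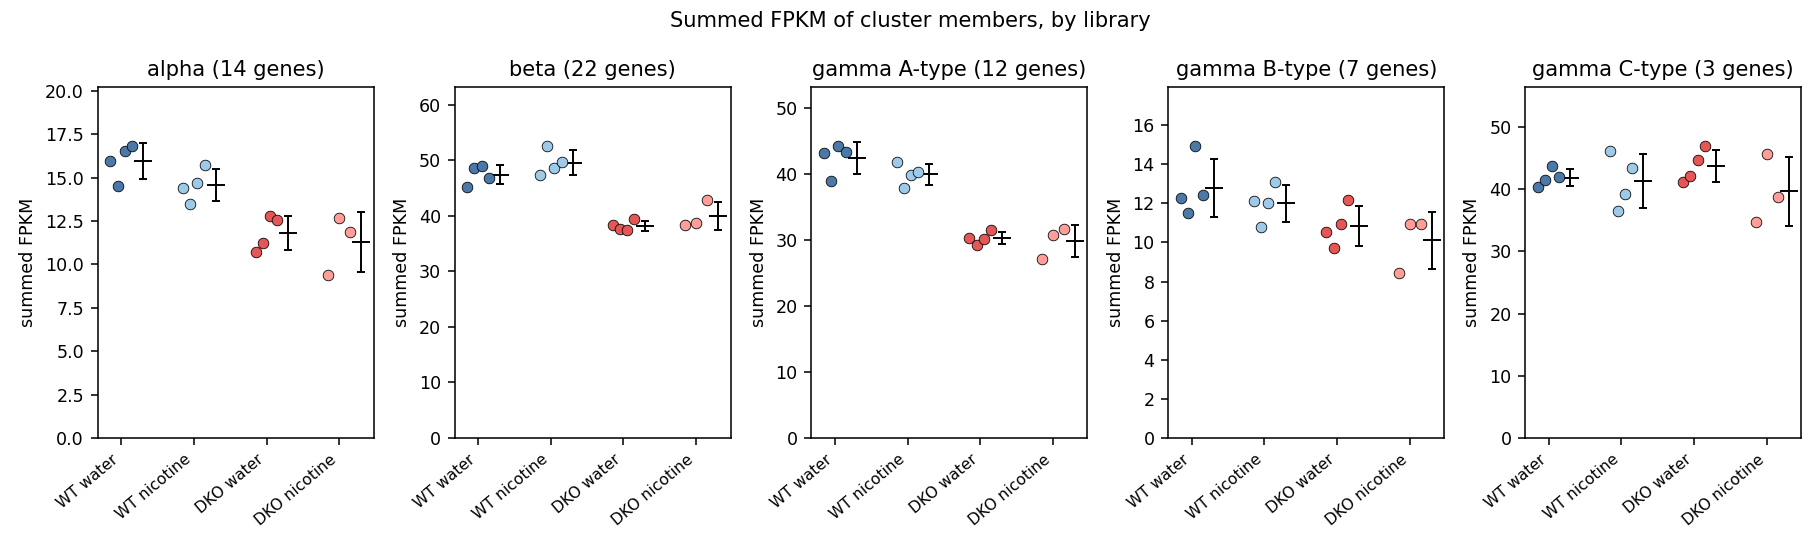
Summed FPKM of the alpha, beta and gamma A-, B- and C-type members in each library; points are libraries, and bars are the mean and SD of each group. The DKO libraries lie below the WT libraries for alpha, beta and gamma A-type, while the gamma C-type groups overlap around 40 FPKM.

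In the alpha cluster 2 of 4 tested members fell in DKO water, Pcdha9, which passed the filter through the WT water libraries alone, and Pcdhac2. Pcdha9, one of the alpha genes with stochastic promoter choice, was at 1.05, 1.21, 1.25 and 1.19 FPKM in the WT water libraries and 0.560, 0.593, 0.815 and 0.768 in the DKO water libraries. The groups did not overlap, and the gene fell by 0.37 on the log2 scale (SE 0.0734, adjusted p = 7.60e-04). Pcdhac2, the alpha gene nearest the constant exons, was at 7.47, 7.63, 8.18 and 8.00 FPKM in WT water and 5.23, 5.22, 6.48 and 5.87 in DKO water. It fell by 0.40 (SE 0.0899, adjusted p = 0.00213), again without overlap, and its DKO mean was 0.729 times the WT mean. Pcdha5 went from 1.08 ± 0.218 to 0.827 ± 0.111 FPKM (SD, n = 4 each) and Pcdha12 from 2.27 ± 0.347 to 1.95 ± 0.308, with overlap in both, and neither was called (adjusted p = 0.107 and 0.207). With no filter, Pcdha11 and Pcdhac1 were called lower too (adjusted p = 0.00101 and 0.0374), which makes 4 of 11 alpha members above 0, beside 8.83% of all genes called lower without the filter. Pcdhac1, the other alpha C-type gene, was at 0.657 ± 0.101 and 0.484 ± 0.0368 FPKM (SD, n = 4 each).

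Pcdha8 lay below the filter and had the largest relative difference of the alpha members above 0. Its libraries held 0.111, 0.126, 0.108 and 0.328 FPKM in WT water, 0.260, 0.437, 0.275 and 0.306 in WT nicotine, 0.0317, 0.0417, 0.0820 and 0.0817 in DKO water and 0.0320, 0.0305 and 0.0919 in DKO nicotine. All 7 DKO libraries lay below all 8 WT libraries. Summed reads were 65 in WT water and 22 in DKO water, and 123 in WT nicotine and 15 in the 3 DKO nicotine libraries. Without the filter it was called lower in the comparison on nicotine (log2 difference -0.33, adjusted p = 0.00101) and not on water (log2 difference -0.14, adjusted p = 0.0787). It was singled out after its values were seen.

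In the beta cluster 9 of 20 tested members fell in DKO water, 0 rose, and the median log2 difference was -0.20. Without DKO water replicate 2, 5 were called lower. Pcdhb17, the second most abundant beta gene, was at 5.23, 5.59, 5.50 and 4.88 FPKM in WT water and 3.96, 3.56, 3.84 and 4.29 in DKO water, without overlap, and fell by 0.36 on the log2 scale (SE 0.0758, adjusted p = 0.00129). Pcdhb5 was at 2.49, 2.19, 2.27 and 2.24 FPKM in WT water and 1.77, 1.31, 1.63 and 1.28 in DKO water, and fell by 0.40 (SE 0.0861, adjusted p = 0.00142). All 4 DKO libraries lay below the WT water libraries for both genes. Pcdhb8 fell from 1.88 ± 0.143 to 1.10 ± 0.332 FPKM (SD, n = 4 each), the largest log2 difference of the cluster at -0.47, with DKO water replicate 4 at 0.628 FPKM below the others at 1.12 to 1.40. Pcdhb3 fell from 2.22 ± 0.0849 to 1.60 ± 0.215 FPKM and Pcdhb6 from 1.30 ± 0.201 to 0.917 ± 0.0951 (SD, n = 4 each), both without overlap.

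The most abundant beta gene, Pcdhb9, fell from 6.66 ± 1.15 to 5.09 ± 0.338 FPKM (SD, n = 4 each; adjusted p = 0.0163), but its libraries overlapped, since WT water replicate 1 was at 5.27 FPKM and the DKO water libraries at 4.59 to 5.34. Its call was lost without WT water replicate 2 or 3 or DKO water replicate 2 (adjusted p = 0.0545, 0.0623 and 0.0546, with a range of 0.00239 to 0.0623 over 15 alternatives). Pcdhb7 fell from 2.34 ± 0.296 to 1.93 ± 0.139 FPKM at adjusted p = 0.0450, also with overlap, and lost its call in 6 of the 8 fits that leave out 1 WT or DKO water library (adjusted p from 0.0686 to 0.139 in those 6, and from 0.00888 to 0.139 over 15 alternatives). Pcdhb12, the third most abundant, was at 3.50 ± 0.474 and 3.51 ± 0.201 FPKM, with a log2 difference of 0.01 (95% confidence interval -0.17 to 0.19). Along the cluster, all 7 tested genes among Pcdhb1 to Pcdhb9 fell, with a median log2 difference of -0.31, against 2 of the 13 from Pcdhb10 to Pcdhb22, with a median of -0.17. Of these 7, Pcdhb2, Pcdhb7 and Pcdhb9 lost their calls in 6, 10 and 3 of 15 alternatives. On nicotine 4 of the 7 and 5 of the 13 fell, with medians of -0.34 and -0.19. The division was made after the values were seen and was not tested.

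The gamma cluster differed by type. Of 12 A-type genes 9 fell in DKO water, with a median log2 difference of -0.34. Of 6 tested B-type genes 1 fell, with a median of -0.10. Of 3 C-type genes 0 fell and 2 rose. Pcdhga8, an A-type gene, was at 3.99, 3.53, 4.20 and 4.49 FPKM in WT water and 2.19, 1.74, 2.02 and 2.12 in DKO water. The DKO libraries reached at most 2.19 and the WT libraries went no lower than 3.53 FPKM, and the gene fell by 0.74 on the log2 scale (SE 0.0812, adjusted p = 2.18e-06), the lowest log2 difference of the 45 tested members. Pcdhga2 was at 3.63, 3.69, 3.84 and 3.65 FPKM in WT water and 2.12, 1.71, 2.05 and 2.25 in DKO water, and fell by 0.64 (SE 0.0833, adjusted p = 1.48e-05). Pcdhga7 was at 4.31, 4.62, 4.86 and 5.21 and 2.64, 2.50, 3.12 and 3.48 FPKM and fell by 0.55 (SE 0.0957, adjusted p = 2.45e-04). Neither gene had overlapping groups, and their DKO means were 0.549 and 0.618 times the WT means.

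Pcdhga3 fell from 3.78 ± 0.195 to 2.74 ± 0.188 FPKM and Pcdhga4 from 3.61 ± 0.436 to 2.47 ± 0.242 (SD, n = 4 each; adjusted p = 1.68e-04 and 0.00147), without overlap. The other A-type genes that fell were Pcdhga5, Pcdhga6, Pcdhga9 and Pcdhga10, by 0.31 to 0.40 on the log2 scale. Those not called were Pcdhga1, Pcdhga11 and Pcdhga12, of which Pcdhga12 was called lower on nicotine. Pcdhga11, one of the most abundant A-type genes, was at 4.84 ± 0.731 and 4.44 ± 0.325 FPKM (SD, n = 4 each), a log2 difference of -0.10 (95% confidence interval -0.29 to 0.10). The B-type gene that fell was Pcdhgb1, from 2.36 ± 0.306 to 1.62 ± 0.268 FPKM (SD, n = 4 each; adjusted p = 0.0443), and the intervals of the other 5 tested B-type genes reached from -0.43 to 0.22. The call of Pcdhgb1 was lost in 9 of 15 alternatives: with a pseudocount of 0.1, with no filter, with the replicate block and without WT water replicate 1, 3 or 4 or DKO water replicate 2, 3 or 4.

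**Figure D3:**
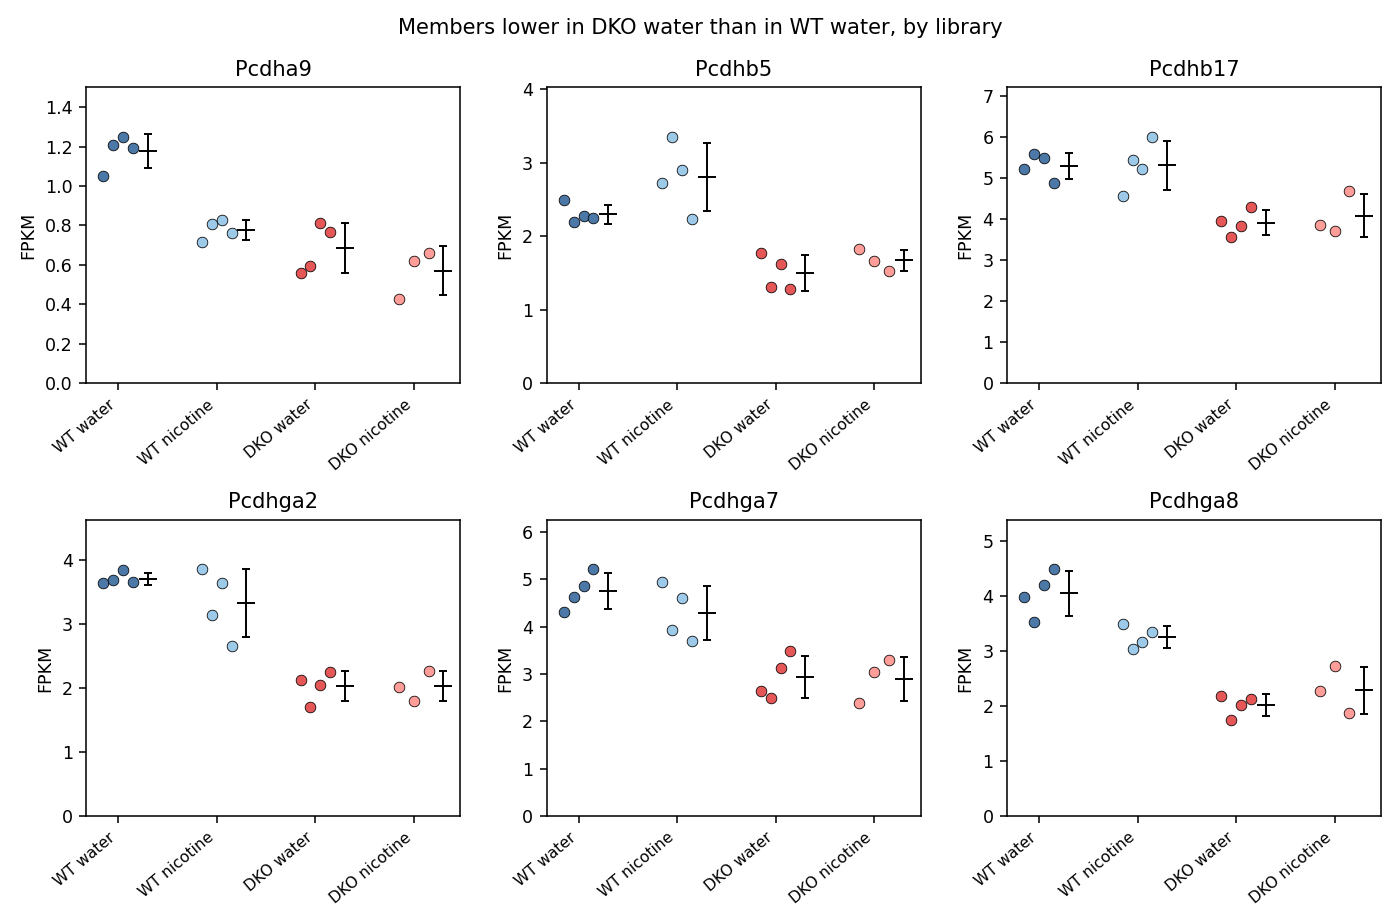
FPKM per library of 6 members that fell in DKO water; points are libraries, and bars are the mean and SD of each group. In each panel all DKO water libraries lie below all WT water libraries, and for Pcdha9 and Pcdhga8 the WT nicotine libraries lie below the WT water libraries as well.

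The C-type gamma genes did not move together. Pcdhgc3, which is known to promote dendrite branching in cortical neurons, was at 11.6, 12.2, 11.5 and 12.4 FPKM in WT water and 14.8, 17.1, 15.9 and 17.7 in DKO water. All DKO water libraries lay above all WT water libraries, and the gene rose by 0.42 on the log2 scale (SE 0.0864, adjusted p = 0.00105), from 11.95 ± 0.463 to 16.4 ± 1.27 FPKM (SD, n = 4 each). Pcdhgc4, the gamma isoform known to be needed for the survival of cortical interneurons, was at 2.58, 2.62, 2.81 and 2.58 FPKM in WT water and 3.26, 3.07, 3.71 and 3.66 in DKO water. It rose by 0.28 (SE 0.0854, adjusted p = 0.0176) without overlap. Inhibitory neuron markers rose as well (7 of 8, median log2 difference 0.29), and so did all 8 astrocyte and all 8 microglial markers (medians 0.45 and 1.40). A link of Pcdhgc4 to these shifts was not tested. The adjusted p of Pcdhgc4 was 0.0507 with median-of-ratios rescaling and 0.0506 without DKO water replicate 3, the only 2 of 15 alternatives in which its call was lost (range 0.00497 to 0.0507). Pcdhgc5, the most abundant gamma gene and one known to bind GABA-A receptors at synapses, was at 26.1, 26.6, 29.3 and 26.9 FPKM in WT water and 23.1, 22.0, 25.0 and 25.6 in DKO water. Every DKO library lay below every WT water library, and the log2 difference of -0.18 was not called (SE 0.0801, adjusted p = 0.0903). It was called lower with median-of-ratios rescaling and in the fit of the 2 groups alone (adjusted p = 0.0349 and 0.0192, with a range of 0.0192 to 0.232 over 15 alternatives).

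Within a library, the ratio of Pcdhgc3 to Pcdhgc5 FPKM does not depend on the scaling of that library. It was 0.440 ± 0.0333 in WT water and 0.431 ± 0.0426 in WT nicotine (SD, n = 4 each). In the DKO libraries it was 0.685 ± 0.0649 on water (SD, n = 4) and 0.647 ± 0.0586 on nicotine (SD, n = 3). The highest WT library was at 0.479 and the lowest DKO library at 0.592. The ratio of Pcdhgc4 to Pcdhgc5 was 0.0973 ± 0.00159 in WT water and 0.143 ± 0.00387 in DKO water (SD, n = 4 each), also without overlap. These genes share their constant exons, so a ratio shows unequal change and not that either gene stayed at its level.

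**Figure D4:**
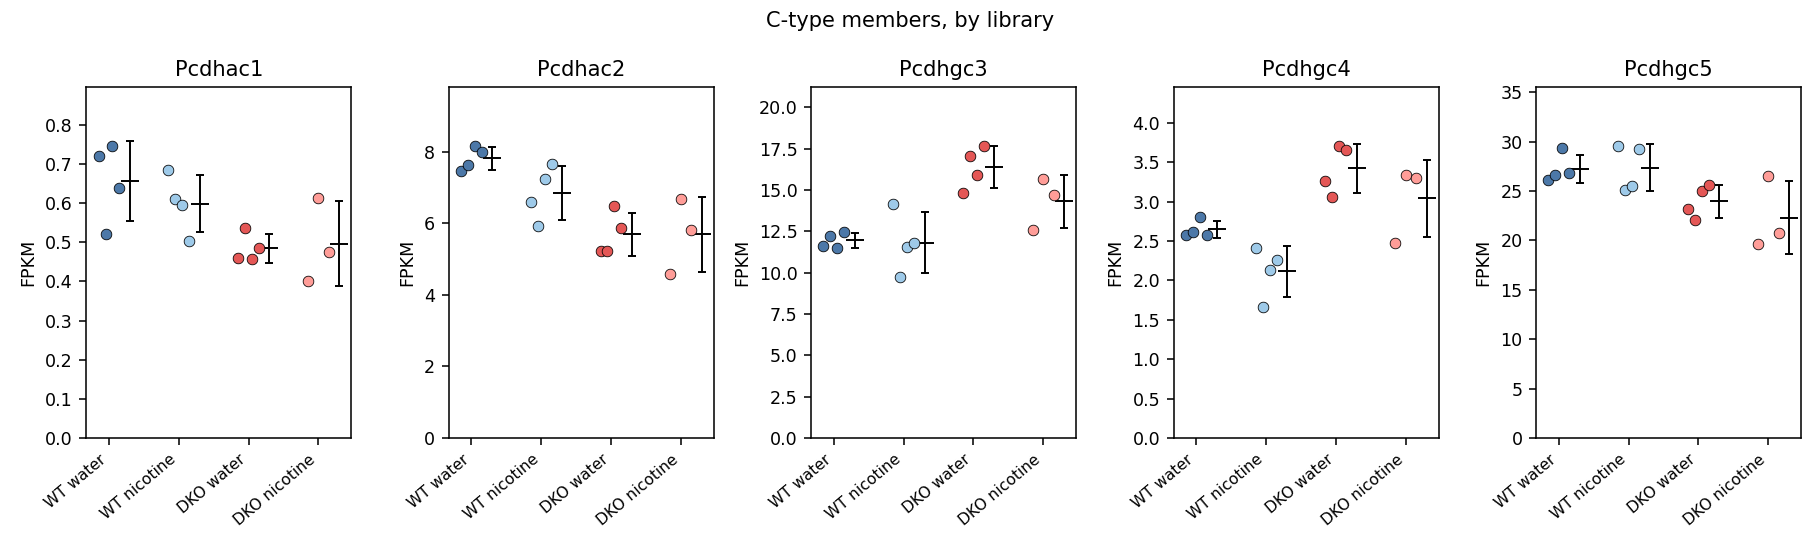
FPKM per library of the 5 C-type members; points are libraries, and bars are the mean and SD of each group. Against WT water, Pcdhac2 lies lower in DKO water, Pcdhgc3 and Pcdhgc4 lie higher, and Pcdhgc5 lies lower at 22.0 to 25.6 FPKM.

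The comparison of the genotypes on nicotine rests on libraries that the comparison on water does not use, although both were estimated in 1 fit. Beta and gamma A-type genes made up most of the members that fell: 9 of 20 tested beta and 9 of 12 A-type genes fell, with 1 of 6 B-type genes, 1 of 3 C-type genes and 0 of 4 alpha genes. DKO nicotine means were lower for 48 of the 55 members above 0 (87.3%), against 34.0% of all 18118 genes above 0. Of the 45 tested members 20 fell, where 11.0% of all genes tested were called lower, and 2 rose, where 24.6% were called higher; 23 were not called. The median log2 difference was -0.23 over tested members and 0.06 over all genes tested. Without the 5 members that passed the filter through the WT libraries, 18 of 40 fell, with the same median to 2 decimals. Libraries did not overlap for 17 lower members and 1 higher member, against 11.8% and 25.8% of all genes tested. Here 7 of 12 excitatory markers fell and 1 rose, 7 of 8 astrocyte and 6 of 8 microglial markers rose, and 4 of 8 pan-neuronal markers fell. Of inhibitory neuron markers 4 of 8 rose, of striatal markers 0 of 6, of oligodendrocyte markers 4 of 6, of precursor markers 1 of 4 and of endothelial and pericyte markers 2 of 5, and all 4 Y-linked genes were called higher in DKO nicotine. The part of these shifts in the member values was not tested. Summed Y-linked expression was above 1 FPKM in 0 of 4 WT nicotine and 2 of 3 DKO nicotine libraries. Genotype is thus partly confounded with this difference here, and the 2 cannot be fully told apart.

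DKO nicotine replicate 1 had the fewest member reads of all libraries, 9114 against 11406 and 10992 in the other DKO nicotine libraries. Without it, 11 members were called lower, among them 5 gamma members in place of 11. Without WT nicotine replicate 4, 7 gamma members were called lower.

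Of the members called lower, 15 were called in both genotype comparisons, which is 71.4% of the 21 on water and 75.0% of the 20 on nicotine. The same overlap over all genes was not counted, so these shares are not read as a trait of the members. The 15 were Pcdhb3, Pcdhb5, Pcdhb6, Pcdhb8, Pcdhb14, Pcdhb17, Pcdhgb1 and the A-type genes Pcdhga2, Pcdhga3 and Pcdhga5 to Pcdhga10. Both calls held under all alternatives for 10 of the 15, whereas Pcdhb14, Pcdhgb1, Pcdhga5, Pcdhga6 and Pcdhga10 lost at least 1 of their calls in some. Of the genes called lower on nicotine alone, the A-type Pcdhga12 fell from 3.51 ± 0.360 (SD, n = 4) to 2.83 ± 0.192 FPKM (SD, n = 3; adjusted p = 0.0148) without overlap, a call lost without DKO nicotine replicate 1. Pcdhb5 was at 2.72, 3.35, 2.90 and 2.24 FPKM in WT nicotine and 1.82, 1.66 and 1.53 in DKO nicotine and fell by 0.50 on the log2 scale (SE 0.0930, adjusted p = 5.04e-04). Pcdhga3 was at 3.51, 3.23, 3.69 and 3.72 FPKM in WT nicotine and 1.96, 2.24 and 2.24 in DKO nicotine and fell by 0.53 (SE 0.0636, adjusted p = 7.80e-06), the lowest log2 difference in this comparison. Neither gene had overlapping groups. Pcdhga8 fell from 3.26 ± 0.202 (SD, n = 4) to 2.29 ± 0.430 FPKM (SD, n = 3), a log2 difference of -0.38 beside -0.74 on water, and Pcdhga2 from 3.32 ± 0.533 (SD, n = 4) to 2.03 ± 0.234 FPKM (SD, n = 3). Pcdhb17 fell from 5.31 ± 0.600 (SD, n = 4) to 4.09 ± 0.521 FPKM (SD, n = 3; adjusted p = 0.00704), where WT nicotine replicate 1 and DKO nicotine replicate 3 overlapped.

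No alpha member was called on nicotine. Pcdha9, Pcdha12 and Pcdhac2 had log2 differences of -0.18, -0.25 and -0.24 with adjusted p = 0.0838, 0.0549 and 0.0666, and each of the 3 was called lower with median-of-ratios rescaling. With no filter 3 alpha members were called lower, Pcdha8, Pcdha9 and Pcdha10, beside 7.84% of all genes. Leaving out WT nicotine replicate 2 gave 2 alpha calls, and leaving out DKO nicotine replicate 2 or 3 gave 1 each. Pcdhac2 was at 6.59, 5.93, 7.25 and 7.67 FPKM in WT nicotine and 4.60, 6.68 and 5.82 in DKO nicotine, where DKO replicate 2 lay among the WT libraries. Like all WT nicotine libraries, this replicate had summed Y-linked expression under 1 FPKM, and a link to its level was not tested. On nicotine the summed alpha FPKM was 14.6 ± 0.917 in WT (SD, n = 4), and it was 11.3 ± 1.71 in DKO (SD, n = 3), without overlap.

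Pcdhgc4 rose on nicotine too, from 2.41, 1.66, 2.13 and 2.26 FPKM in WT nicotine to 2.48, 3.34 and 3.30 in DKO nicotine (log2 difference 0.37, SE 0.0922, adjusted p = 0.00460), without overlap. Here 4 of 8 inhibitory neuron markers rose (median 0.19), as did 7 of 8 astrocyte and 6 of 8 microglial markers. A link of Pcdhgc4 to these shifts was not tested. Pcdhgc3 was at 14.2, 9.73, 11.6 and 11.8 FPKM in WT nicotine and 12.6, 15.7 and 14.7 in DKO nicotine. WT nicotine replicate 1 lay among the DKO libraries, and the log2 difference was 0.26 (SE 0.0933, adjusted p = 0.0371). This call was lost without WT nicotine replicate 2, 3 or 4 or DKO nicotine replicate 2 or 3 (adjusted p from 0.0623 to 0.150, and from 0.00456 to 0.150 over 14 alternatives), leaving 1 member called higher. Pcdhgc5 was at 29.6, 25.1, 25.5 and 29.3 FPKM in WT nicotine and 19.6, 26.5 and 20.7 in DKO nicotine and fell by 0.29 (SE 0.0865, adjusted p = 0.0146), with overlap through DKO replicate 2. That replicate, the DKO nicotine library with summed Y-linked expression under 1 FPKM, was also the highest DKO nicotine library for Pcdhgc3, above all WT nicotine libraries. Without DKO nicotine replicate 1 or 3 the adjusted p of Pcdhgc5 was 0.0923 and 0.0726, with a range of 0.000478 to 0.0923 over 14 alternatives. Pcdhb12 fell on nicotine from 3.97 ± 0.361 (SD, n = 4) to 3.21 ± 0.536 FPKM (SD, n = 3) at adjusted p = 0.0490, with overlap, and 5 of the 7 fits that leave out 1 library of these groups lost the call, all but those without WT nicotine replicate 2 and DKO nicotine replicate 3 (adjusted p from 0.0596 to 0.233 in those 5, and from 0.0136 to 0.233 over 14 alternatives).

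The comparisons of nicotine with water within a genotype ask whether the drug relates to cluster expression. No member was called in either of them or in the interaction by limma. In WT mice 0.0786% of all genes tested were called lower and 0.0943% higher, in DKO mice 0.055% and 0.102%, and in the interaction 0.0% and 0.0157%. At an unadjusted p under 0.05, 5 members stood out in WT, 2 in DKO and 2 in the interaction, against 1107, 1765 and 878 of 12728 genes. Limma voom on the recovered reads called 0 as well. The 95% confidence intervals of single members reached from -0.45 to 0.38 in WT and from -0.48 to 0.38 in DKO. These outermost limits depend on the estimates as well as on their SE, which had medians of 0.0884 in WT and 0.0955 in DKO. They do not give the smallest difference that could be detected. In WT all 4 water and 0 of 4 nicotine libraries carried Y-linked expression, and nicotine and this difference cannot be told apart. The interaction uses the same WT libraries, so this limit holds for it too.

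In WT, Pcdha9 had the smallest p, but it passed the filter through the WT water libraries alone, the group where it was high. Pcdha9 was at 0.717, 0.805, 0.829 and 0.760 FPKM in WT nicotine, below all WT water libraries, with a log2 difference of -0.29 (SE 0.0734, adjusted p = 0.192). Pcdhga8 and Pcdhgc4 followed, with log2 differences of -0.24 and -0.23 (adjusted p = 0.395 and 0.459). The libraries of the 2 groups did not overlap for any of these 3 genes, and over the 45 members 3 lay lower and 1 (Pcdhb14) higher without overlap, beside 2.66% and 3.14% of all genes tested. In DKO, the smallest p was that of Pcdhga3, at 2.51, 2.97, 2.70 and 2.78 FPKM in DKO water and 1.96, 2.24 and 2.24 in DKO nicotine (log2 difference -0.25, adjusted p = 0.120), without overlap, as for 3.99% of all genes tested. Pcdhb7 was at 1.93 ± 0.139 (SD, n = 4) and 2.41 ± 0.0704 FPKM (SD, n = 3), a difference of 0.22 (adjusted p = 0.228), without overlap, as for 6.91% in this direction, and Pcdhgc3 differed by -0.18 (adjusted p = 0.397). In the interaction, Pcdhga8 had the smallest p, 0.00791 before adjustment, with an estimate of 0.36 (SE 0.119, adjusted p = 0.657), followed by Pcdhb7 and Pcdhga3 at 0.24 and -0.17 (adjusted p = 0.679 and 0.721).

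**Figure D5:**
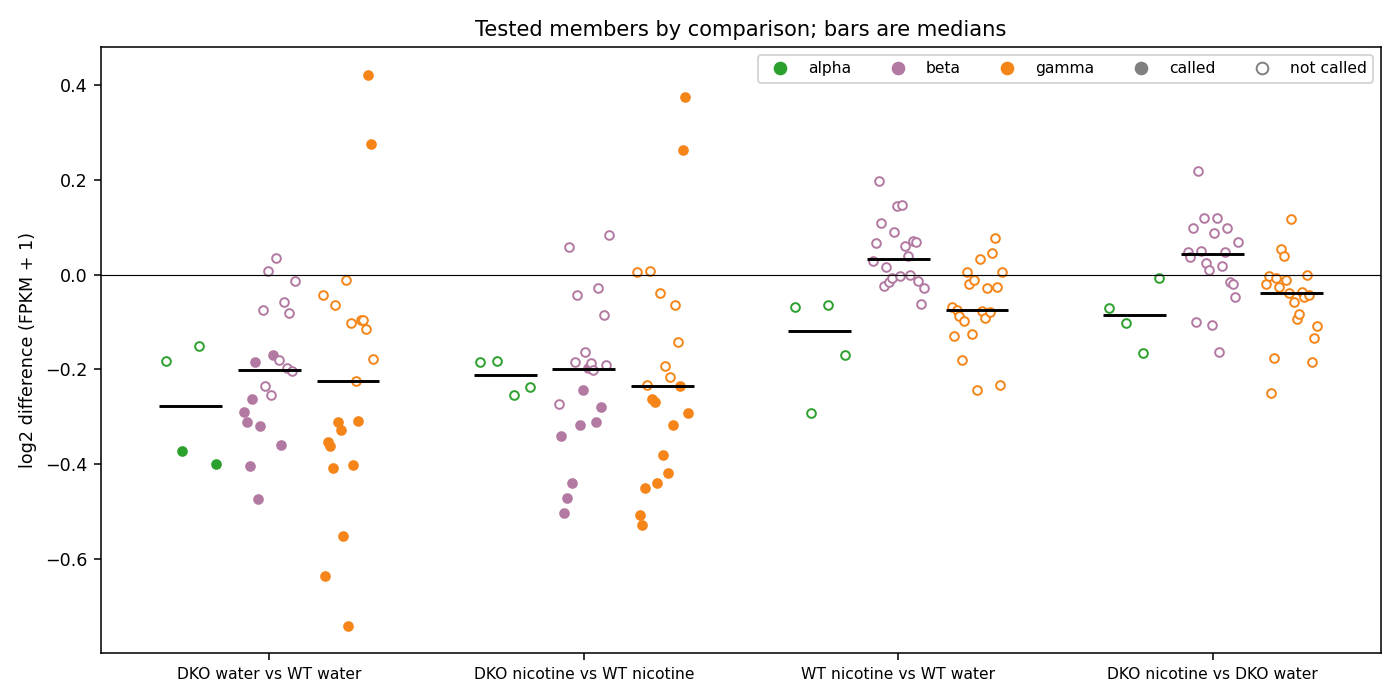
Log2 difference of FPKM + 1 of each tested member in the 4 comparisons of groups, by cluster; points are members, filled where called, and bars are medians. Called members appear in the genotype comparisons, and none is called for nicotine against water.

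Genes tied to the clusters by function or place were counted from fixed lists in the comparison on water. Among 18 architectural and silencing factors known to act on the clusters, such as the insulator protein CTCF and cohesin, Smc1a, a cohesin subunit, rose from 26.6 ± 0.489 to 28.8 ± 1.25 FPKM (SD, n = 4 each; log2 difference 0.11) and 0 fell. Of 11 nonclustered protocadherins, which lie outside the clusters and share no exons with them, 2 rose and 4 fell. Pcdh8 rose from 7.76 ± 1.37 to 12.7 ± 2.30 FPKM and Pcdh10 fell from 24.1 ± 0.763 to 20.2 ± 1.38 (SD, n = 4 each), Pcdh15 rose by 0.38 and Pcdh20 fell by 0.36 on the log2 scale. Of 8 genes for shedding and intramembrane cleavage, the sheddases Adam10 and Adam17 rose, Adam10 from 19.7 ± 0.694 to 22.5 ± 1.22 FPKM and Adam17 from 3.19 ± 0.282 to 4.74 ± 0.274 (SD, n = 4 each), and the targeted Psen2 fell.

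Of 13 intracellular partners, which include the WAVE actin-regulating complex that binds protocadherin tails, 4 rose and 5 fell. Cyfip2, a neuronal WAVE complex subunit, fell from 220.4 ± 6.41 to 174 ± 5.17 FPKM, while its paralog Cyfip1 rose from 11.0 ± 0.182 to 14.9 ± 0.433 (SD, n = 4 each). Wasf1 and Nckap1, further subunits, fell by 0.32 and 0.22 on the log2 scale. Of 18 surface partners and other synaptic adhesion genes 2 rose and 6 fell. The postsynaptic Nlgn2 fell from 60.7 ± 2.47 to 51.8 ± 1.75 FPKM (SD, n = 4 each), and Cdh10 and Dscam fell by 0.31 and 0.28 on the log2 scale. Of 13 tested genes beside or between the clusters 3 rose (Hars, Ndufa2 and Hdac3) and 1 fell (Diaph1), with a median log2 difference of 0.11. Hars, a tRNA ligase gene upstream of the alpha cluster, rose by 0.29, Ndufa2 by 0.27 and Hdac3, downstream of the gamma cluster, by 0.12, and Diaph1, the gene next to the gamma cluster, fell by 0.15. Over the 6 lists, 5.56% to 30.8% of the tested genes were called higher and 0% to 38.5% lower, beside 25.5% and 12.4% of all genes. The neighbours, with 3 higher and 1 lower of 13, lay near these shares, and the architectural factors lay below both. The nonclustered protocadherins (4 of 11 lower), intracellular partners (5 of 13) and surface partners and adhesion genes (6 of 18) lay above the share called lower. A share of falls above that of all genes was thus not particular to the clustered members. These counts describe the lists, and no list was tested.

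On nicotine the same lists gave 2 rises (Stag1 and Tet2) and 0 falls of 18 architectural and silencing factors, 3 rises and 3 falls of 11 nonclustered protocadherins, and 2 rises and 2 falls of 8 cleavage genes, with Ncstn, the gamma-secretase subunit nicastrin, beside Psen2 among the falls. Of the intracellular partners 3 rose and 4 fell, of the surface partners and adhesion genes 2 rose and 5 fell, and of the neighbours 4 rose and 2 fell. Over the 6 lists, 11.1% to 30.8% were called higher and 0% to 30.8% lower, beside 24.6% and 11.0% of all genes. The architectural factors lay below both shares, and the neighbours, with 4 higher and 2 lower of 13, lay somewhat above both. The remaining lists, the nonclustered protocadherins among them, lay above the share called lower. Cyfip2 and Wasf1 fell by 0.33 and 0.35 on the log2 scale and Cyfip1 rose by 0.44. Adam17 was at 3.24 ± 0.332 FPKM in WT nicotine (SD, n = 4), rising to 4.78 ± 0.258 (SD, n = 3) in the knockout, and Diaph1 fell from 11.1 ± 0.666 (SD, n = 4) to 8.87 ± 0.221 FPKM (SD, n = 3).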

How the data were processed

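Total RNA of 15 cortex samples was extracted with TRIzol and made into TruSeq Stranded mRNA libraries, per the labels' protocols, with GRCm38.p6 as genome build, per the submitters' processing notes. The sources used here name neither the aligner nor the counting tool. The authors deposited 1 table of FPKM values per library. These deposited FPKM values were whole multiples of 1 read for 18118 of 18118 genes above 0 (tolerance 0.02 reads), with the reads summed over all rows as denominator, which gave reads per gene and depth. Names of 27 genes turned into dates were restored, and 21727 of 21878 rows matched RefSeq.

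Values were analysed as log2(FPKM + 1) with limma 3.58.1 in R 4.3.3, an intensity trend and 1 mean per group estimated over the 15 libraries together, without a block. The p-values were adjusted within each of 5 comparisons (2 of genotype, 2 of nicotine, 1 interaction). Functions were tested on simulated data. Tables and plots used Python 3.11.15, pandas 2.3.3, numpy 2.4.6 and matplotlib 3.10.9. Members and lists were chosen with earlier results of these data known. Named members were, per cluster, up to 6 called on water with the smallest p and the 3 most abundant, all C-type members, members called higher, and, with no call for nicotine, the 3 with the smallest p in each such comparison; further members were chosen for naming once values had been seen. From each list up to 4 called genes with the smallest p were named, except 1 that is not reported here; Stag1, Tet2 and Ncstn were added after their values were seen. Alternatives were a pseudocount of 0.1, no filter, median-of-ratios rescaling, no intensity trend, only the groups compared, a replicate block, limma voom on recovered reads, and leaving out each library.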

Additional observations from a re-analysis of the deposited data

Results flagged for a closer look

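Pcdhgc4 in WT water held the 1 library that stood apart among 75 groups of 4 libraries checked. Replicate 3 was at 2.81 FPKM, against 2.58 to 2.62 in the other 3 libraries, and its gap to the nearest of them was 0.849 of the range of the group in Dixon's test, past the 95% critical value for 4 samples. Chance flags about 1 in 20 groups. The 4 DKO water libraries lay above it.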

How the results depend on the processing

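Of the calls on water, 14 of 21 lower and 1 of 2 higher (Pcdhgc3) held under all alternatives run, and on nicotine 10 of 20 lower and 1 of 2 higher (Pcdhgc4). Members called lower on water numbered 19 to 27 over the alternatives that do not leave out single libraries, among them the fit of only the groups compared. They numbered 15 to 22 when 1 library was left out. On nicotine they numbered 14 to 25 and 11 to 21. Members called higher numbered 1 with median-of-ratios rescaling on water, and 1 on nicotine with no filter, with median-of-ratios rescaling, with only the groups compared and with the replicate block; leaving out 1 library gave 1 to 2 in both. Alpha members called lower on water numbered 4 with no filter. On nicotine they numbered 3 with no filter and with median-of-ratios rescaling, and 2 without the intensity trend and with limma voom. Leaving out 1 library gave on water 2 alpha, 5 to 10 beta and 8 to 10 gamma members lower, and on nicotine 0 to 2, 6 to 9 and 5 to 11. The causes were not tested. Under every alternative 0 members were called for nicotine or the interaction. The log2 difference of Pcdhb12 on water was 0.00729 and turned to -0.0432 with median-of-ratios rescaling, and leaving out 1 library gave -0.0600 to 0.0652. Median-of-ratios factors were 0.969 to 0.993 in WT and 1.01 to 1.05 in DKO libraries.

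Replicate numbers are shared between groups, but the deviations of same-numbered libraries correlated at -0.214 to 0.165, so the numbers were not taken to pair the libraries. With the replicate block 19 members were called lower and 2 higher on water, and 15 and 1 on nicotine.

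Tested members stood on as few as 24 reads per library, which limits the precision of the lowest, and 7 of 11 alpha members above 0 lay under the filter and were not tested with it. The assignment of reads from shared exons, cell type shifts and the Y-linked difference in every comparison that uses nicotine libraries limit what the values can show.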
